A study of Homo sapiens with 4 samples.

Results

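The mitochondrial genome is a small circular DNA whose RNAs were measured here in A375 cells, a widely used human line grown from a melanoma. The rows considered were those whose gene symbol starts with MT-, 37 of the 56832 rows of the deposited table: 13 messenger RNAs, 2 ribosomal RNAs and 22 transfer RNAs. Of these, 16 had a mean normalised read count of at least 10 over the 4 libraries and were kept: all 13 messenger RNAs, both ribosomal RNAs and 1 transfer RNA, MT-TP. They were selected on this mean over all 4 libraries, so their levels are given as a description. The difference between the groups played no part in this rule, but the set was chosen with earlier results of these data known. The transfer RNA nearest the limit from below was MT-TF, with a mean of 9.11, and MT-TP lay far inside it with a mean of 2140.

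The cells, labelled WT in genotype, grew in DMEM with fetal bovine serum and received for 48 h either octanoate at 1 mM, a saturated medium-chain fatty acid, or isopropanol as the vehicle. There were 2 libraries per group, from a single cell line, dose and time. The labels do not say whether the replicates were separate cultures, so the spread between these libraries may be technical. The p-values and standard errors of single genes combine this spread with the variance of other genes of similar level.

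Human mitochondrial DNA is transcribed into long precursors from a promoter on each strand. The heavy-strand precursor holds both ribosomal RNAs, most of the messenger RNAs and most of the transfer RNAs. The light-strand precursor holds MT-ND6 and the other transfer RNAs, MT-TP among them. Enzymes cut the transfer RNAs out, and these cuts set the ends of most of the RNAs between them. Every messenger RNA encodes a subunit of the respiratory chain or of ATP synthase. The ribosomal RNAs belong to the mitochondrial ribosome, which translates these messenger RNAs. The precursor is shared, but the mature RNAs differ in how long they last.

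The joins below show how tightly these genes are packed, at the places where the results below compare neighbours. All are plus-strand sequences of chrM in GENCODE 29 (GRCh38), written 5′ to 3′ with T for U, except MT-TP, which is written in the sense of its own RNA. In the first pair, capitals mark the transfer RNA that follows a ribosomal RNA, MT-TV in chrM:1582-1690 and MT-TL1 in chrM:3210-3304.
MT-RNR1/MT-TV/MT-RNR2: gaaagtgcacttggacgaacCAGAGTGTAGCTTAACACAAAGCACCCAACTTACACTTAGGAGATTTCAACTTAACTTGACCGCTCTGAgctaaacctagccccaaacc
MT-RNR2/MT-TL1: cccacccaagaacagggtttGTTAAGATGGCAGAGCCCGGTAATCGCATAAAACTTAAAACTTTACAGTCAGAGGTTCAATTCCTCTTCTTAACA
In the next pair, capitals mark the bases that belong to both genes of a messenger RNA with 2 reading frames, 46 bases in chrM:8507-8592 and 7 bases in chrM:10740-10786.
MT-ATP8/MT-ATP6: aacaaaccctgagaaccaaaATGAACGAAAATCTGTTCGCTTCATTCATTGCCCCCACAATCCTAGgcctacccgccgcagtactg
MT-ND4L/MT-ND4: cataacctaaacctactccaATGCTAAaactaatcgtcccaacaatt
Between MT-ND4 and MT-ND5 lie 3 transfer RNAs with no base between them, MT-TH, MT-TS2 and MT-TL2, in capitals within chrM:12118-12356.
MT-ND4/MT-TH/MT-TS2/MT-TL2/MT-ND5: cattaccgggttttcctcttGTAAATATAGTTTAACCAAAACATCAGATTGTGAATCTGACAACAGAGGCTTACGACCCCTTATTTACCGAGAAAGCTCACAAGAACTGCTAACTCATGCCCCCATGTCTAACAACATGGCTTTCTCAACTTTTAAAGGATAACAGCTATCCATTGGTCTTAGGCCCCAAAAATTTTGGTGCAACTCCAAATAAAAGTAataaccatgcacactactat
MT-TP, the transfer RNA for proline, is coded on the minus strand at chrM:15956-16023, and its anticodon is in capitals.
MT-TP: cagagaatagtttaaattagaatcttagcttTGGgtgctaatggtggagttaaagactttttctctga

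The libraries held between 67785956 and 78005035 recovered reads, and mitochondrial transcripts took between 2161337 and 2503906 of them. SOX10, the transcription factor of the melanocyte lineage, was abundant in all 4 libraries (34072 to 41363 normalised counts), as was MITF (2414 to 3533). The pigment genes were low: MLANA lay between 34.9 and 52.0 and TYR between 1.93 and 3.93. Of the 9 markers fixed for melanoma 8 were tested. Called higher were 2 (16.2% of all tested genes) and lower 3 (13.7%). S100B fell (log2 difference -1.12, limma adjusted p 9.15e-12), as did NGFR (-0.63, limma adjusted p 1.35e-08) and MITF (-0.48, limma adjusted p 2.33e-06). AXL (0.42, limma adjusted p 4.33e-06) and PMEL (0.55, limma adjusted p 0.0289) rose. Of the 11 markers fixed for other cell types none was at 0 in all libraries, and their summed count was 1889 and 2079 in vehicle and 1093 and 1129 in octanoate. Members went both ways: KRT14, a keratin, fell (log2 difference -2.08, limma adjusted p 2.40e-13), COL1A1, a collagen of fibroblasts, fell (-0.69, limma adjusted p 3.63e-05), and PECAM1, an endothelial marker, rose (0.95, limma adjusted p 1.05e-05). The other 5 tested markers were not called, and the leukocyte markers PTPRC, CD3E and CD68 had means below 10. The part of these markers in the mitochondrial results was not tested.

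Mitochondrial reads made up 3.04% ± 0.0142 of all recovered reads with vehicle and 3.20% ± 0.0152 with octanoate (SD over 2 libraries). Both octanoate libraries, at 3.21% and 3.19%, lay above both vehicle libraries, at 3.05% and 3.03%. The classes behind this total went opposite ways. Messenger RNA took 2.62% and 2.56% of all reads with vehicle and 2.91% and 2.85% with octanoate. Ribosomal RNA took 0.426% and 0.471% in vehicle and 0.297% and 0.334% in octanoate. The groups did not overlap in any of these 3 shares, and the exact two-sided permutation test gave p = 0.333 for each, the smallest value that 2 libraries against 2 allow. In bulk RNA, a change in the number of mitochondrial genomes, in RNA made or lost per genome, and in the amount of other RNA cannot be told apart.

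To ask which mitochondrial RNAs differed after octanoate, log2(normalised count + 1) was compared with limma across 20250 genes, with Benjamini-Hochberg adjustment over all of them and a call at an adjusted p under 0.05. Among the 16 kept transcripts, 8 were called, against a background of 29.9% of all tested genes. Of these, 5 were higher (background 16.2%) and 3 lower (background 13.7%). The groups did not overlap for 12 of the 16, where 63.1% of all tested genes did not overlap. With edgeR 10 of the 16 were called (background 32.0% of tested genes in either direction and 17.1% higher), and with DESeq2 9 (background 30.3%). Only 2 were called when limma's variance prior had no intensity trend (MT-ND4 and MT-ND4L), where 1625 of the 20250 genes were called. Without octanoate 1 and without octanoate 2, 3 were higher each time, where 2483 and 2562 of the 20250 genes were. The limma calls were MT-ND4, MT-ND4L, MT-ATP8, MT-ATP6 and MT-ND6 upward and MT-RNR1, MT-RNR2 and MT-ND1 downward. The median log2 difference of the 16 was 0.06, beside 0.01 over all tested genes, and became -0.10 when each transcript was taken as a share of the summed mitochondrial messenger RNA of its library. Their median absolute difference was 0.17 and that of all tested genes was 0.19. Among the 1111 tested genes at least as abundant as MT-ATP8, the least abundant of the messenger RNAs, 38.1% were called and the median absolute difference was 0.12.

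Both ribosomal RNAs fell in read count. How RNA was selected for the libraries is not described here. Its part in these counts, and in their ratio to messenger RNA, was not tested. MT-RNR1, the RNA of the small mitochondrial ribosomal subunit (chrM:648-1601), had 60210 and 56349 normalised counts in vehicle, against 32365 and 41221 with octanoate. The octanoate libraries differed from each other by more than the vehicle libraries did, yet both lay below them. The mean fell by 36.9% (log2 difference -0.67, SE 0.08, limma adjusted p 3.93e-07). MT-RNR2, the RNA of the large subunit (chrM:1671-3229), had 261698 and 284558 in vehicle and 190591 and 204369 in octanoate. Its mean fell by 27.7% (log2 difference -0.47, SE 0.07, limma adjusted p 2.64e-05). The only gene between them is MT-TV, printed above in capitals, and MT-TL1 closes the ribosomal block. The ratio of MT-RNR1 to MT-RNR2 overlapped between the groups, at 0.230 and 0.198 in vehicle and 0.170 and 0.202 in octanoate, so an unequal fall was not resolved (exact permutation p = 0.667).

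The third transcript to fall was the first messenger RNA after the ribosomal block. MT-ND1, a membrane subunit of complex I (chrM:3307-4262), had 48735 and 47660 normalised counts in vehicle and 40212 and 37632 in octanoate. Both octanoate libraries were lower, and the mean fell by 19.2% (log2 difference -0.31, SE 0.06, limma adjusted p 0.000301). Complex I is the entry point of electrons from NADH, and its messenger RNAs went both ways. Of its 7 mitochondrial subunits, 3 were called higher and 1 lower, where 16.2% and 13.7% of all tested genes were.

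MT-ND4 and MT-ND4L, also complex I subunits, had the largest rises of the 16. They lie on a single messenger RNA in which the reading frames share the 7 bases shown above. MT-ND4 (chrM:10760-12137) had 337689 and 325870 normalised counts in vehicle and 511476 and 479867 in octanoate. The groups were far apart relative to their spread, with a rise of 49.4% (log2 difference 0.58, SE 0.08, limma adjusted p 2.80e-06). MT-ND4L (chrM:10470-10766) had 33178 and 33201 in vehicle and 46584 and 45978 in octanoate, a rise of 39.4% (log2 difference 0.48, SE 0.06, limma adjusted p 5.53e-07). Its replicates differed by less than its groups many times over. The reads of MT-ND4 per read of MT-ND4L were 10.2 and 9.82 in vehicle and 11.0 and 10.4 in octanoate, a ratio 1.07 times as high with no overlap (exact permutation p = 0.333, the smallest possible). These 2 genes together took 18.7% and 19.4% of the mitochondrial messenger RNA reads in vehicle and 25.5% and 25.1% in octanoate.

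The other complex I messenger RNAs of the heavy strand were not called. MT-ND2 had 100785 and 99603 normalised counts in vehicle and 98517 and 91174 in octanoate (log2 difference -0.08, limma adjusted p 0.382). MT-ND3 had 43477 and 43240 in vehicle and 46389 and 43016 in octanoate (log2 difference 0.04, limma adjusted p 0.642). MT-ND5, separated from MT-ND4 by the 3 transfer RNAs shown above, had 118681 and 126018 in vehicle and 127449 and 129167 in octanoate (log2 difference 0.07, limma adjusted p 0.467). The contrast between these neighbours is plainest as a ratio within each library, which no scaling factor can move. There were 2.85 and 2.59 MT-ND4 reads per MT-ND5 read in vehicle and 4.01 and 3.72 in octanoate, a ratio 1.42 times as high (log2 difference 0.51, vehicle SD 0.10, octanoate SD 0.08, n = 2 each; exact permutation p = 0.333, the smallest possible).

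Both subunits of ATP synthase rose together. MT-ATP8 (chrM:8366-8572), the shortest of the messenger reading frames, had 11750 and 11611 normalised counts in vehicle and 14078 and 13944 in octanoate. The replicates were close and the groups well apart (log2 difference 0.26, SE 0.06, limma adjusted p 0.000744). MT-ATP6, the proton channel subunit (chrM:8527-9207), had 236098 and 208713 in vehicle and 270597 and 255326 in octanoate. It rose by 18.2% (log2 difference 0.24, SE 0.08, limma adjusted p 0.0168), and the call was lost without vehicle 2 (0.15, limma adjusted p 0.144), without octanoate 1 (0.20, limma adjusted p 0.197) and without octanoate 2 (0.29, limma adjusted p 0.0572). The reading frames share 46 bases on a single RNA, and the ratio of MT-ATP6 to MT-ATP8 reads overlapped between the groups, at 20.1 and 18.0 in vehicle and 19.2 and 18.3 in octanoate. MT-CO3 follows on the same unit, with no transfer RNA between it and MT-ATP6, and it was not called. There were 0.885 and 0.950 MT-CO3 reads per MT-ATP6 read in vehicle and 0.799 and 0.753 in octanoate, with no overlap (log2 difference -0.24, exact permutation p = 0.333, the smallest possible).

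Complex IV, cytochrome c oxidase, passes the electrons to oxygen. None of its 3 mitochondrial messenger RNAs was called by limma, edgeR or DESeq2, where 29.9%, 32.0% and 30.3% of all tested genes were. None had an unadjusted limma p under 0.05, where 8040 of the 20250 tested genes did. For all 3 the groups overlapped, where 63.1% of all tested genes did not overlap. MT-CO1, the catalytic subunit and the most abundant mitochondrial RNA by count, had 570966 and 505939 normalised counts in vehicle and 532225 and 551542 in octanoate (log2 difference 0.01, limma adjusted p 0.937). MT-CO2 had 130192 and 120689 in vehicle and 147977 and 129819 in octanoate (log2 difference 0.14, limma adjusted p 0.137). That value was 0.09 without vehicle 2, 0.05 without octanoate 1 and 0.24 without octanoate 2, none of them called. MT-CO3 had 208944 and 198240 in vehicle and 216273 and 192258 in octanoate (log2 difference 0.00277, limma adjusted p 0.984). The reads of complex I per read of complex IV went from 0.789 and 0.864 in vehicle to 1.02 and 0.993 in octanoate, with no overlap (exact permutation p = 0.333, the smallest possible).

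MT-CYB, cytochrome b of complex III, had 104784 and 92576 normalised counts in vehicle and 92038 and 84086 in octanoate. Both octanoate values were below both vehicle values, but the higher octanoate value, 92038, lay just under the lower vehicle value, 92576. The log2 difference of -0.16 (SE 0.07) had a limma adjusted p of 0.0832. It was called without vehicle 2 (log2 difference -0.25, limma adjusted p 0.0151), with edgeR (adjusted p 0.0434) and with DESeq2 (adjusted p 0.0183). Without vehicle 1 the difference was only -0.07 (limma adjusted p 0.517) and without octanoate 2 it was -0.10 (limma adjusted p 0.542).

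**Figure D1:**
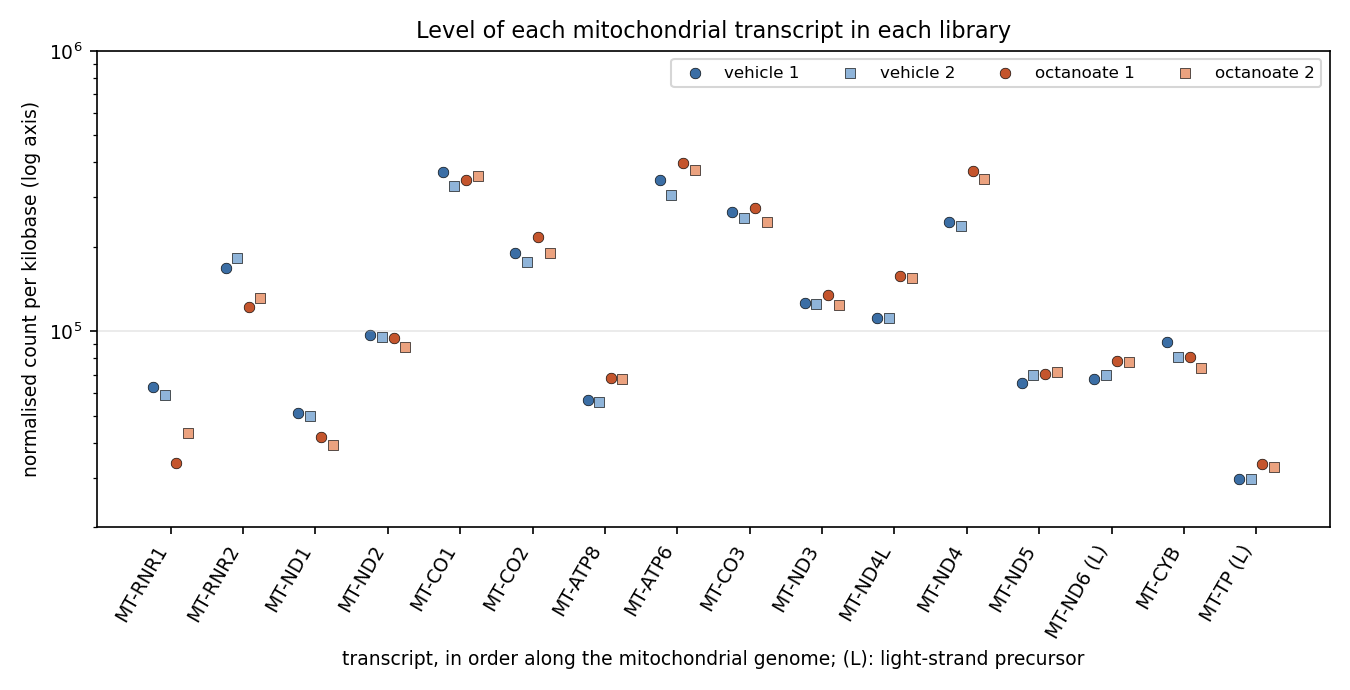
Normalised count per kilobase of gene length (log axis) of the 16 kept mitochondrial transcripts in order along the genome, with blue points for the vehicle libraries and red or orange points for the octanoate libraries. The octanoate points lie below the vehicle points for MT-RNR1, MT-RNR2 and MT-ND1 and above them for MT-ND4L, MT-ND4, MT-ATP8 and MT-ATP6. By smaller differences they also lie below for MT-ND2 and MT-CYB and above for MT-ND5, MT-ND6 and MT-TP.

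The light strand gave the remaining call. MT-ND6, the only messenger RNA on the light-strand precursor and a complex I subunit (chrM:14149-14673), had 35396 and 36717 normalised counts in vehicle and 41059 and 40666 in octanoate. It rose by 13.3% (log2 difference 0.18, SE 0.06, limma adjusted p 0.0199) and lost the call without vehicle 1 (0.15, limma adjusted p 0.102), without octanoate 1 (0.17, limma adjusted p 0.133) and without octanoate 2 (0.19, limma adjusted p 0.108). MT-TP had 2026 and 2016 in vehicle and 2282 and 2235 in octanoate. Its groups did not overlap, but the log2 difference of 0.16 (SE 0.06) had a limma adjusted p of 0.0637. It was called by edgeR (adjusted p 0.0340) and not by DESeq2 (adjusted p 0.100). Set against the 12 heavy-strand messenger RNAs, MT-ND6 did not separate the groups: there were 0.0182 and 0.0202 MT-ND6 reads per heavy-strand messenger read in vehicle and 0.0192 and 0.0198 in octanoate. Counts of both kept light-strand RNAs depend on whether counting used strand, which is not given in the sources used here. As a share of the summed mitochondrial messenger RNA, the median log2 difference of MT-ND6 and MT-TP was 0.01, beside 0.17 on the size-factor scale. A shift between the strands was thus not resolved, and its log2 value of 0.02 changed sign without vehicle 1 (-0.06).

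Among the other 21 transfer RNAs, 11 were at 0 in all 4 libraries and 10 had at least 1 read. All of these transfer RNAs together held between 10 and 20 reads per library. A count of 0 allows up to 3 reads, for counting error only. MT-TF had 8, 11, 4 and 13 reads in vehicle 1, vehicle 2, octanoate 1 and octanoate 2, and next came MT-TC with a mean of 2.24 normalised counts. The genes are 59 to 75 bases long. MT-TP and MT-TF, which had the most reads, are the 2 that border the control region, the stretch without genes that holds the promoters. Every other transfer RNA gene has a neighbour on each side at a distance of at most 31 bases. How the counting treated a read that touches 2 genes is not given in the sources used here, and its part in these low counts was not tested. No statement on mature transfer RNA levels can be read from these values.

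The differences were also followed along the heavy-strand precursor, as a description of a pattern seen in these same values. Taken in genome order, the first 7 of the 14 heavy-strand transcripts each had a higher log2 difference than the transcript before: MT-RNR1 at -0.67, MT-RNR2 at -0.47, MT-ND1 at -0.31, MT-ND2 at -0.08, MT-CO1 at 0.01, MT-CO2 at 0.14 and MT-ATP8 at 0.26. The order ended there. MT-ATP6 had 0.24, MT-CO3 and MT-ND3 had values near 0, MT-ND4L and MT-ND4 had the highest of all, and MT-ND5 and MT-CYB beyond them were back at 0.07 and -0.16. Over the 14 transcripts the log2 difference and the distance of the gene start from that of MT-TF had a Pearson r of 0.66 and a Spearman rho of 0.58. Over the 12 heavy-strand messenger RNAs alone r was 0.32 and rho 0.33, so much of the relation rested on the ribosomal RNAs. These transcripts share a precursor and the same 4 libraries and are not independent points. Base composition gave r values of -0.29 over the 14 and -0.43 over the 12 for GC content (rho -0.35 and -0.57). Gene length gave r values of -0.30 and -0.22 (rho -0.39 and -0.34). For the log2 mean level per kilobase r was 0.50 and 0.46 (rho 0.42 and 0.38).

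**Figure D2:**
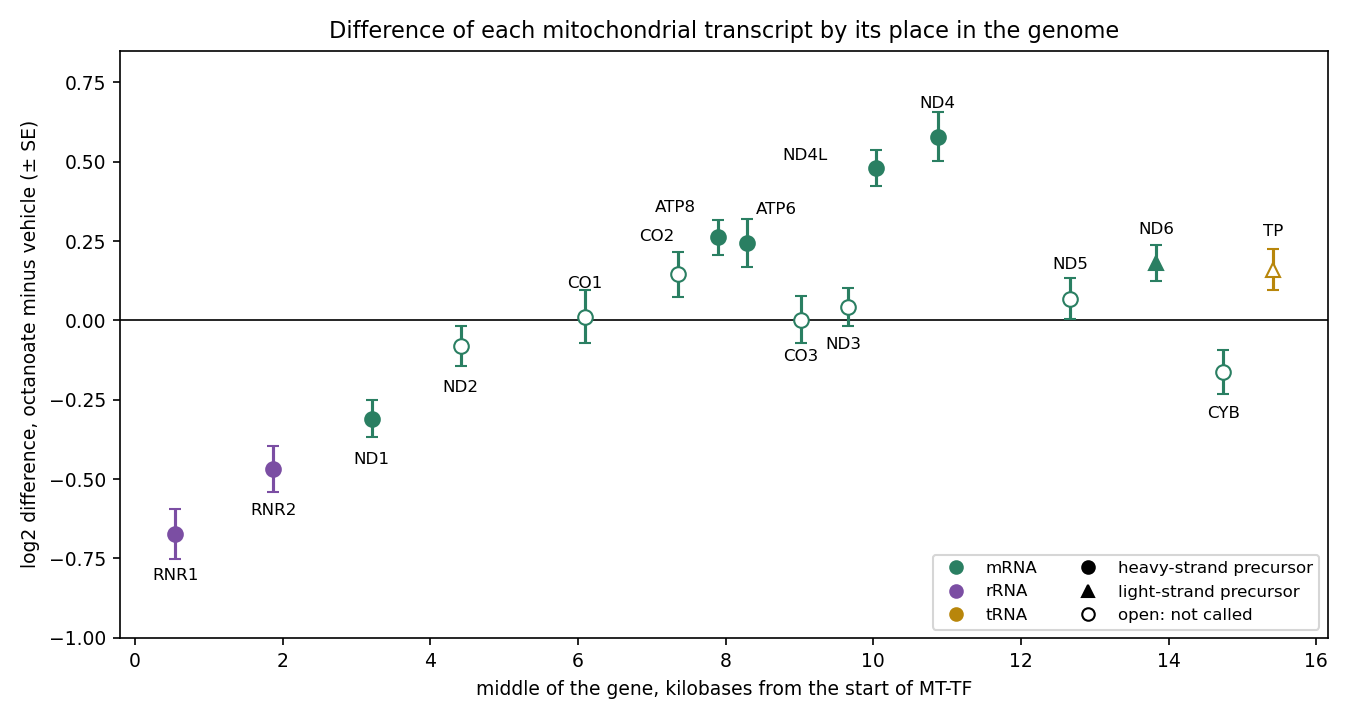
Log2 difference of octanoate minus vehicle with its standard error for the 16 kept transcripts, against the distance of the middle of each gene from the start of MT-TF in kilobases. Circles (heavy-strand precursor) and triangles (light-strand precursor) are filled for limma calls, and values climb from -0.67 at MT-RNR1 to 0.26 at MT-ATP8, drop at MT-CO3 and MT-ND3, and peak at 0.58 at MT-ND4.

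The make-up of the mitochondrial reads showed the same shifts without any scaling between libraries. Ribosomal RNA held 14.8% ± 1.12 of the mitochondrial reads with vehicle and 9.87% ± 0.873 with octanoate (SD over 2 libraries), the octanoate libraries standing at 9.25% and 10.5%. MT-ND4 with MT-ND4L held 16.1% and 16.4% in vehicle and 23.2% and 22.4% in octanoate. The remaining complex I messenger RNAs held 15.1% and 16.1% and then 14.7% and 14.6%. Complex IV messenger RNAs held 38.6% ± 1.33 with vehicle and 37.2% ± 0.0713 with octanoate (SD over 2 libraries). Ribosomal reads per messenger read were 0.163 and 0.184 in vehicle and 0.102 and 0.117 in octanoate, which is 0.632 times the vehicle ratio (log2 difference -0.66, vehicle SD 0.13, octanoate SD 0.14). In all, 11 such ratios were computed. The groups did not overlap for 5 of them, and the smallest exact p of 0.333 becomes 0.733 after adjustment over the 11.

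**Figure D3:**
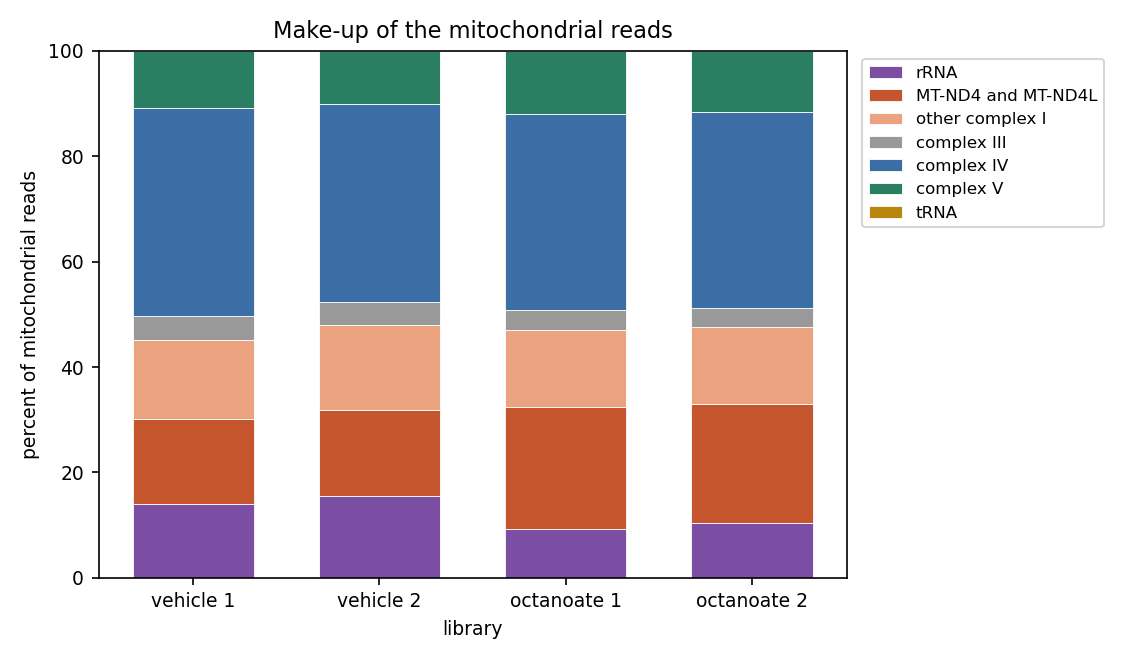
Stacked bars of the percent of mitochondrial reads in each library taken by ribosomal RNA, by MT-ND4 with MT-ND4L, by the other complex I messenger RNAs, by the messenger RNAs of complexes III, IV and V, and by transfer RNA, which is too small to be seen. The ribosomal share is smaller in the octanoate libraries (9.25% and 10.5%) than in the vehicle libraries (mean 14.8%), and the share of MT-ND4 with MT-ND4L is larger.

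**Figure D4:**
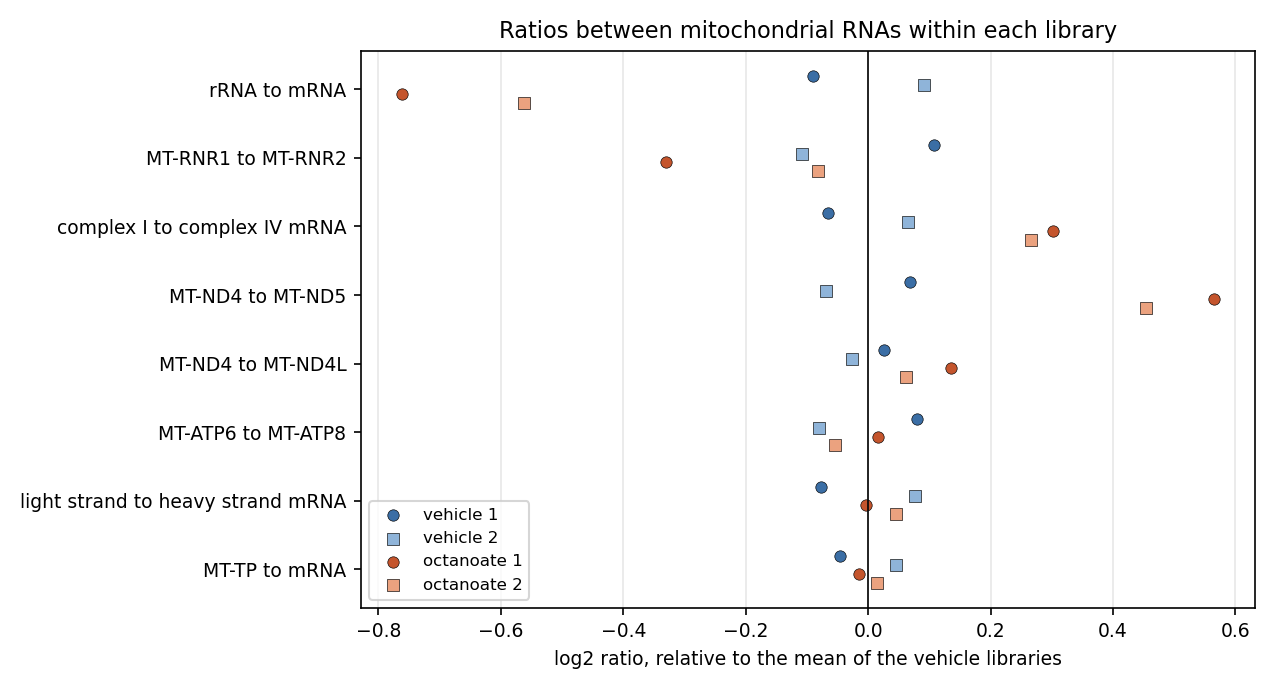
Log2 ratio between mitochondrial RNAs within each library, set to 0 at the mean of the vehicle libraries, with 1 point per library. The octanoate points lie apart from the vehicle points for ribosomal to messenger RNA, complex I to complex IV, MT-ND4 to MT-ND5 and MT-ND4 to MT-ND4L, and at least in part among them for the other 4.

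The kept RNAs, taken over both precursors, differed widely in level. Per kilobase of gene length, MT-CO1 was highest in vehicle at 349191 ± 29819 normalised counts (SD, n = 2), and its libraries overlapped with those of MT-ATP6 at 326587 ± 28434. MT-CO3 came next at 259684 ± 9654 and MT-ND4 after it at 240769 ± 6065. Lowest were MT-ND1 at 50416 ± 795 and MT-TP at 29721 ± 102. In vehicle 3 neighbouring pairs in this order overlapped: MT-CO1 with MT-ATP6, MT-CO2 with MT-RNR2, and MT-ND6 with MT-ND5. In octanoate MT-ATP6 was highest at 386141 ± 15857 and MT-ND4 second at 359703 ± 16220, where its libraries overlapped with those of MT-CO1 at 351416 ± 8858. The other overlapping neighbours in octanoate were MT-ND3 with MT-RNR2, MT-ND6 with MT-CYB, and MT-ND1 with MT-RNR1. MT-RNR1 stood at 61090 ± 2861 in vehicle and 38567 ± 6564 in octanoate, where its place relative to MT-ND1 was not resolved. Levels of genes with shared bases depend on how such reads were counted: per kilobase of bases of its own, MT-ATP8 had 72551 in vehicle instead of 56429. MT-ND4 and MT-ND4L, on a single RNA, were counted at 240769 and 111749 per kilobase, so a level per kilobase is not a number of molecules.

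In the authors' deposited table, 8 of the 16 transcripts had an adjusted p under 0.05 (background 12.9% of 33533 genes), and all 8 limma calls were among them with the same sign. The largest differences in the authors' deposited table were 0.58 for MT-ND4 and -0.66 for MT-RNR1, the latter with an adjusted p of 0.00172. In the authors' deposited table MT-CYB had an adjusted p of 0.0574 and MT-TP of 0.129.

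Pieces of mitochondrial DNA lie copied in the nuclear genome, and reads from the 2 can be confused. Searched against all other GENCODE 29 transcripts at 95% identity or more over at least 100 bases, 10 of the 16 transcripts matched at least 1 nuclear gene. MT-ND4 matched MTND4P12 over 1376 bases at 95.8% identity, MT-ATP6 matched MTATP6P1 over 681 bases at 98.5%, and MT-RNR2 matched MTRNR2L12 over 1050 bases at 95.1%. No match was found for MT-RNR1, MT-ND4L, MT-ND3, MT-ND5, MT-CYB or MT-TP. The table lists 20 nuclear copies by name, and only MTRNR2L4 and MTRNR2L12 had a mean of at least 10, at 33.9 and 16.6 normalised counts. MTRNR2L3 at 4.79, MTND2P12 at 4.68 and MTRNR2L8 at 2.51 came next, and 6 copies were at 0 throughout. All 20 together summed to between 50.1 and 80.4 normalised counts per library, against 11611 or more for each mitochondrial messenger RNA. This sum says little of the matched genes, since of the 13 that shared sequence only MTRNR2L12 is among the rows used here. The counts of the matched transcripts are uncertain to the extent that reads with more than 1 place in the genome were dropped or assigned, which is not given in the sources used here. It is likewise not stated whether counting used strand. Without strand, reads of MT-ND6 and MT-TP cannot be told apart from heavy-strand RNA opposite these genes.

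Transcription, cutting and decay of these RNAs depend on nuclear genes, and a list of 50 was followed, all of them tested. Of these 12 were called, 5 higher and 7 lower, beside 29.9% of all tested genes, and the median log2 difference of the list was -0.03. That median was -0.00397 without vehicle 1, -0.07 without vehicle 2 and without octanoate 1, and -0.00445 without octanoate 2. In the transcription group POLRMT, the mitochondrial RNA polymerase, had 7059 and 6583 normalised counts in vehicle and 8457 and 7473 in octanoate, a rise (log2 difference 0.22, limma adjusted p 0.00997) that was not called without vehicle 2 (limma adjusted p 0.122) or without octanoate 1 (limma adjusted p 0.237). MTERF1, a termination factor that binds within MT-TL1 at the end of the ribosomal block, had 2752 and 2840 in vehicle and 1889 and 2027 in octanoate. Its difference (log2 -0.51, SE 0.07, limma adjusted p 1.33e-06) was the largest fall of the list, the groups lay well apart, and it was called under all 15 alternatives. TFAM, which packages mitochondrial DNA and serves at its promoters, also fell (log2 difference -0.20, limma adjusted p 0.0121), but was not called without vehicle 2 (limma adjusted p 0.156) or without octanoate 2 (limma adjusted p 0.108). The other 7 genes of this group were not called.

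The genes for cutting at transfer RNAs and for the FASTK family of RNA-binding proteins held 4 falls and 1 rise among 10 members, with a median log2 difference of -0.15, where 13.7% of all tested genes were lower and 16.2% higher. FASTKD5, needed for ends of messenger RNAs that no transfer RNA borders, had 3471 and 3169 normalised counts in vehicle and 2393 and 2559 in octanoate (log2 difference -0.42, limma adjusted p 2.37e-05). HSD17B10, a subunit of the enzyme that cuts the 5′ end of transfer RNAs, had 8465 and 7771 in vehicle and 6785 and 6414 in octanoate (log2 difference -0.30, limma adjusted p 0.000486). FASTKD3 fell as well (log2 difference -0.31, limma adjusted p 0.00170). FASTK fell by 0.17 and FASTKD1 rose by 0.25 on the log2 scale, and FASTK lost its call whichever library was left out, and FASTKD1 did so for every library but octanoate 2 (limma adjusted p up to 0.213 and 0.218). With limma none of the 8 genes of stability, tailing and decay was called, where 29.9% of all tested genes were. Of the 8, 1 had an unadjusted limma p under 0.05, where 8040 of the 20250 tested genes did. There the members with the smallest p were PDE12, a deadenylase, at -0.13 (limma adjusted p 0.0826, edgeR 0.0482, DESeq2 0.0567) and REXO2, an oligoribonuclease, at -0.10 (limma adjusted p 0.247).

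In the group that copies mitochondrial DNA limma called 1 of 10 genes (background 29.9%): POLG2, the accessory subunit of the DNA polymerase, had 2152 and 2036 normalised counts in vehicle and 2511 and 2555 in octanoate (log2 difference 0.28, limma adjusted p 0.00205). MGME1, a nuclease of the same system, had a log2 difference of -0.15 (limma adjusted p 0.0845). It was called by edgeR (adjusted p 0.0476) and without vehicle 2 (-0.22, limma adjusted p 0.0455), and stood at -0.08 without vehicle 1 (limma adjusted p 0.515). Of 12 genes for modifying mitochondrial RNA, 2 were higher (background 16.2%) and 1 lower (background 13.7%). GTPBP3 and TRMU, which modify the same wobble base of transfer RNAs, went apart: GTPBP3 rose (log2 difference 0.26, limma adjusted p 0.00265) and TRMU fell (log2 difference -0.23, limma adjusted p 0.00546). GTPBP3 was not called without vehicle 2 (limma adjusted p 0.0654), nor TRMU without vehicle 1 (limma adjusted p 0.0537) or without octanoate 2 (limma adjusted p 0.0552). TFB1M, a methyltransferase of the small ribosomal RNA, rose (log2 difference 0.20, limma adjusted p 0.0136), a call kept only without vehicle 1 among the fits that leave out a library (limma adjusted p up to 0.142 in the others).

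**Figure D5:**
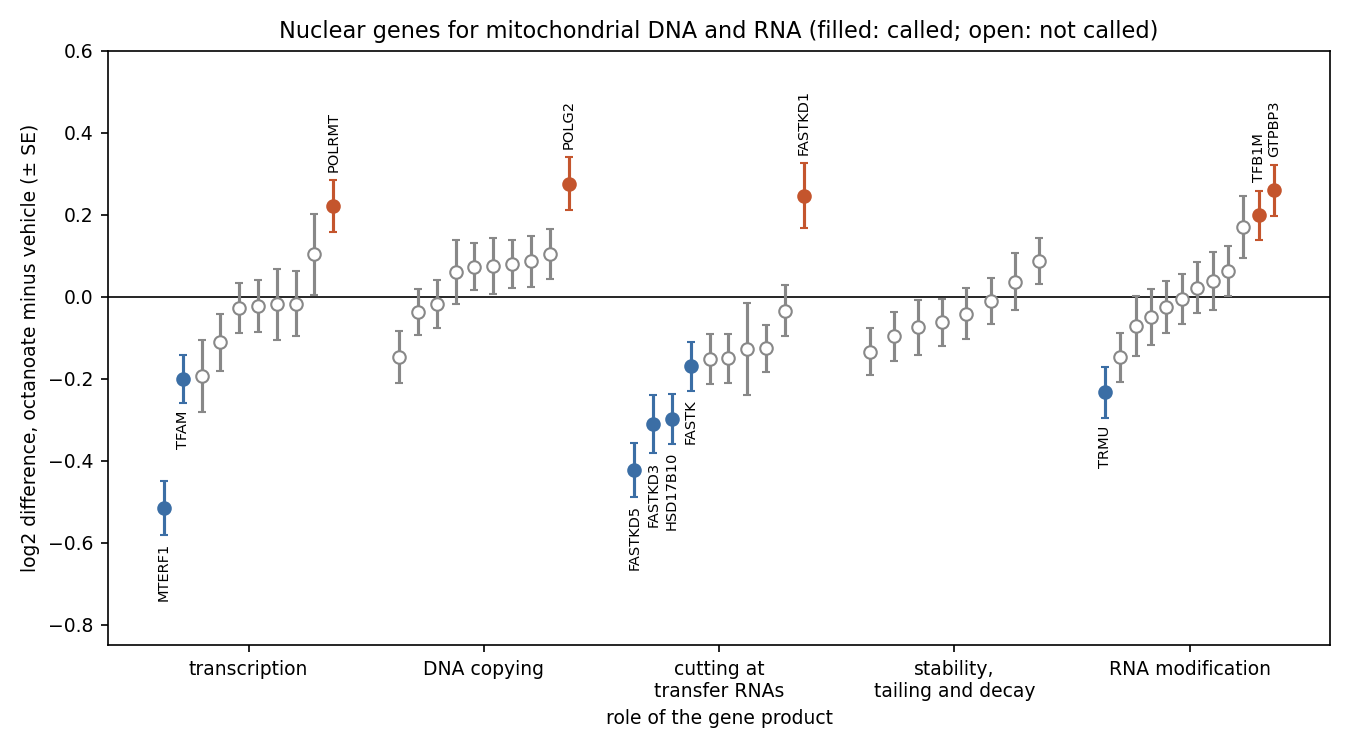
Log2 difference of octanoate minus vehicle with its standard error for the 50 nuclear genes, sorted within each role, with filled points for limma calls and open points for the rest. Filled below 0 are MTERF1 (-0.51) and TFAM (-0.20) in transcription and TRMU (-0.23) in RNA modification. So are HSD17B10, FASTKD5, FASTK and FASTKD3 in the group for cutting at transfer RNAs, which includes the FASTK family. No gene of stability, tailing and decay is filled in this limma fit.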

How the data were processed

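The authors deposited a signal per gene and library, by its file name a DESeq2-normalised read count. Per the submitters' processing notes, bcl2fastq 2.17, Trim Galore, STAR 2.4, Picard, HTSeq 0.9.1, DESeq2 and the build hg38 were used, with no roles given. The annotation, strand setting and treatment of multiply mapped reads are not given in the sources used here. A second deposited table gives, for the authors' own comparison, the log2 fold change and its error, the test statistic (a score), and raw and adjusted p-values.

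All positive values were whole multiples of their library's smallest value (100% within 0.01 read), so whole reads were recovered: 76922530 and 74648605 in vehicle, 78005035 and 67785956 in octanoate. The step of 1 read was 0.963 to 1.08 normalised counts. Because 1 factor scales each library, values carry no correction for gene length.

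The main test was limma 3.58.1 in R 4.3.3 on log2(value + 1) with an intensity trend, over genes with a mean of at least 10, two-sided, with treatment as the only term. Log2 differences are on that scale. Their standard errors and limma p-values use moderated variances, in which each gene's own variance is drawn toward that of genes of similar level. The variance prior had 21.2 degrees of freedom. edgeR 4.0.16 (quasi-likelihood) and DESeq2 1.42.0 were run on the recovered reads and called 6480 and 4947 genes. Ratios and shares used recovered reads and exact permutation tests. Coordinates, lengths and sequences came from GENCODE 29 (GRCh38), in which all 37 symbols matched, and shared sequence from blastn 2.17.0. The fits were tested on simulated counts.

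The members and lists were chosen with earlier results of these data known. All kept transcripts were named, and of the nuclear list the 2 genes with the smallest p in each role. TFAM, FASTK, FASTKD1, FASTKD3 and TFB1M were named after their values were seen, as were the 6 ratios beyond those of strand, ribosomal to messenger RNA, transfer to messenger RNA, MT-RNR1 to MT-RNR2 and complex I to IV. Alternatives were other pseudocounts, filters, scalings and variance priors, a replicate block, each library left out, and the count tests.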

Additional observations from a re-analysis of the deposited data

How the results depend on the processing

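The 8 mitochondrial calls kept their direction under all 15 alternatives that tested single genes. MT-ND4 and MT-ND4L stayed called under each of them. MT-RNR1, MT-RNR2, MT-ND1 and MT-ATP8 lost the call only when the variance prior had no intensity trend (adjusted p 0.0836, 0.0624, 0.0869 and 0.0863). MT-ATP6 and MT-ND6 lost it without the trend, with every gene that had a read, and without 3 of the 4 libraries each. Without the trend 2 transcripts were called (2 higher, 0 lower), with 1625 calls over all genes and 6207 at an unadjusted p under 0.05. With every gene that had a read 6 were called (3 higher), where 2595 of 43449 genes were. Each of edgeR, TMM factors and equal library totals called 10, where 6480, 6416 and 6582 of the 20250 genes were called. DESeq2 called 9, where 4947 of 16324 genes were. For MT-ATP6 and MT-ND6 the cause was not tested.

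Of the 50 nuclear genes, 12 were called under the main settings, where 6048 of the 20250 genes were. The count was 4 with every gene (1 higher, 3 lower), where 2595 of 43449 genes were called. Without the trend it was 1 (0 higher, 1 lower), where 1625 of the 20250 genes were called. Without a library the median log2 difference of the list lay between -0.0723 and -0.00397. With equal library totals 13 were called lower, with or without the mitochondrial reads, where 3234 and 3192 of the 20250 genes were. With edgeR 12 were called lower, where 3014 of the 20250 genes were.

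What a replicate number stands for is not in the labels. The deviations of replicate 1 in both groups had a correlation of 0.13 over 20250 genes. With the replicate number as a block, 11 mitochondrial transcripts were called, the 8 with MT-CO2 (limma adjusted p 0.00864), MT-CYB and MT-TP. In that fit 21 nuclear genes were called (7 higher, 14 lower), where 8376 of the 20250 genes were (4307 higher, 4069 lower).

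As a share of the summed mitochondrial messenger RNA of each library, the median log2 difference was -0.10 for the 16 transcripts and for the heavy-strand messenger RNAs, 0.0102 for the light strand and -0.73 for ribosomal RNA, since this total itself was higher in octanoate. The heavy-strand messenger median was 0.0439 to 0.0926 without a library. The log2 ratio of MT-ND6 to heavy-strand messenger RNA ranged from -0.0563 to 0.0979 without a library, and changed sign without vehicle 1 and without octanoate 2 (-0.00318). That of MT-TP to messenger RNA, -0.000125 over all libraries, was 0.0456 without vehicle 2 and 0.0152 without octanoate 1, and ranged from -0.0458 to 0.0456. MT-ATP6 to MT-ATP8 gave 0.0617 without vehicle 1 and 0.0163 without octanoate 2, with a range of -0.0990 to 0.0617, and MT-ND6 to MT-TP gave -0.00932 without vehicle 1, with a range up to 0.0505. Every other ratio kept its direction without each library. For the 6 ratios chosen after seeing the data, leaving out a library was added then too. Where a library is left out, the lone library of its group is assumed to vary like the other group. With 2 libraries per group, no value taken once per library can reach an exact p below 0.333, and the reads are too few to follow any transfer RNA but MT-TP.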
